A study of Mus musculus with 6 samples.

Results

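The DNA replication machinery was examined in sorted leptotene/zygotene (L/Z) spermatocytes of control and Eef1g-cKO mice. The members were 38 genes chosen by name: the MCM helicase, the origin recognition complex, the licensing factors and their inhibitor, the factors that activate the helicase, the replicative polymerases, the sliding clamp with its loader, and the enzymes that join Okazaki fragments. All 38 were among the 54532 genes of the count table, and 37 of them were among the 8513 genes with enough reads to be tested.

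Each genotype had 3 libraries of polyadenylated RNA from spermatocytes of 12 dpp testes. Control samples are labelled wild type, and the methods of the study describe them as littermates without stating whether they carried Cre. In the Eef1g-cKO samples a floxed part of Eef1g, which encodes the gamma subunit of the translation elongation factor eEF1, was deleted by Stra8-GFPCre, a recombinase that acts in germ cells from differentiating spermatogonia onwards. Both genotypes were on a C57BL/6J background, and the cells were gated by Hoechst fluorescence. The labels do not say whether libraries of 1 genotype came from separate animals, so that p-values measure the spread between these libraries, which may be technical.

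DNA is copied before meiosis in the same ordered way as before a mitotic division. The origin recognition complex (ORC) marks origins, CDC6 and CDT1 load the MCM2 to MCM7 ring there, and geminin, the product of Gmnn, blocks CDT1 so that an origin is licensed no more than once per cycle. CDC45 and GINS then turn MCM into the moving helicase, polymerase alpha with primase lays primers, polymerases delta and epsilon extend them on the PCNA clamp, which the RFC complex loads, and FEN1 and LIG1 finish the lagging strand. In male germ cells the last round of copying takes place in preleptotene spermatocytes, just before the leptotene cells studied here, and many replication genes are classical targets of E2F transcription factors, which act at the start of S phase.

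Stretches of sequence are shown first because promoters of replication genes are where E2F acts. Cdc6, Cdt1, Pcna and Orc6 differed between genotypes at the threshold given below, and Mcm5, Mcm6 and Orc1 did not pass it. Orc4, which also passed, is not shown. RefSeq promoters on GRCm38.p6, running from 250 bases before to 50 bases after the start site, were found for 30 of the 38 members. They were searched on both strands for 4 E2F letter sets (TTTCCCGC, TTTCGCGC, TTTGCCGC and TTTGGCGC), and capitals mark the matches in the first 5 stretches. In Mcm5 and Mcm6 a pair of matches overlaps. In the last 2 stretches, from members with no E2F match, capitals mark the CCAAT box, here read from the opposite strand. Position 0 is the first base of the RefSeq transcript. The genes as counted begin further upstream for Cdc6, Pcna and Orc1. The stretches of Cdc6 and Pcna thus lie inside the counted gene, and that of Orc1 does in part.
Cdc6, chr11:98907987-98908046, plus strand, positions -164 to -105: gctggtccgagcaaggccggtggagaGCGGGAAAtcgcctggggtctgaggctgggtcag
Cdt1, chr8:122568035-122568064, plus strand, positions 20 to 49: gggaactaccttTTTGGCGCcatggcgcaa
Mcm5, chr8:75109332-75109391, plus strand, positions -177 to -118: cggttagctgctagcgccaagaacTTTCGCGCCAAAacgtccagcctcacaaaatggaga
Mcm6, chr1:128359740-128359839, minus strand, positions -134 to -35: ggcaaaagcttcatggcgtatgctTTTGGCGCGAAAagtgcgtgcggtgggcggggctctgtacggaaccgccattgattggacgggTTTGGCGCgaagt
Orc1, chr4:108579416-108579445, plus strand, positions -38 to -9: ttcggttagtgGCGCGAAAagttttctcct
Pcna, chr2:132253251-132253280, minus strand, positions -100 to -71: aaccacgggtacgATTGGtccttgaggaga
Orc6, chr8:85299532-85299631, plus strand, positions -100 to -1: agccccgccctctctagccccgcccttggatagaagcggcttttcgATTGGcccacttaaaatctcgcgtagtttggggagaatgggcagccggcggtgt

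An E2F match stood in the promoter of 15 of the 30 members with one, which is 50%, against 5.73% of the 6474 tested genes with a promoter and 2.60% of all 27025 genes in the table. The 15 were Cdc6, Cdt1, Gins3, Lig1, Mcm3, Mcm5, Mcm6, Mcm7, Orc1, Orc3, Pola1, Pold1, Pold3, Pole2 and Rfc3. The 12-letter run TTTCGCGCCAAA of Mcm5 is the reverse complement of TTTGGCGCGAAA in Mcm6, and 4 genes in the whole table carry it in either direction. The CCAAT box was found in 60.0% of member genes, against 44.0% of tested genes, and TTTGAA, a core of the cell cycle homology region, in 16.7% against 13.6%. These shares describe letters in a window and carry no test.

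In the control libraries the replication genes spanned a wide range of levels. Levels between genes are compared here per length, as CPM (reads of a gene for every 1000000 in its library, after scaling) for each kilobase of gene length in the count table. For every member but Pola2 that length takes in all annotated exonic bases, which may exceed the transcript made. The order depends on it, and without regard to length the control mean of Pcna (321 CPM) stood above that of Gmnn (262 CPM). Gmnn was the highest, at 178.8 ± 22.1 CPM per kb (SD, n = 3). It was followed by Pcna at 134 ± 3.77, Rfc4 at 99.2 ± 19.1, Orc6 at 69.1 ± 12.2 and Mcm4 at 56.9 ± 7.26. Rfc4 shares 12.7% of its exonic bases with Eif4a2 on the opposite strand, which had a control mean of 273 CPM. Exonic bases are shared with other genes for 15 members, and whether strand was used in counting is not stated. The control libraries of Gmnn, Pcna and Rfc4 did not overlap with those of the next gene in this order, whereas those of Orc6 overlapped with those of Mcm4. In all, 22 members stood above 10 CPM per kb, where the median of the tested genes was 9.37, and 8 stood below 5. For 31 of the 37 neighbouring pairs in the order, the control libraries overlapped, so most of the middle of the order is not resolved at this spread.

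**Figure D1:**
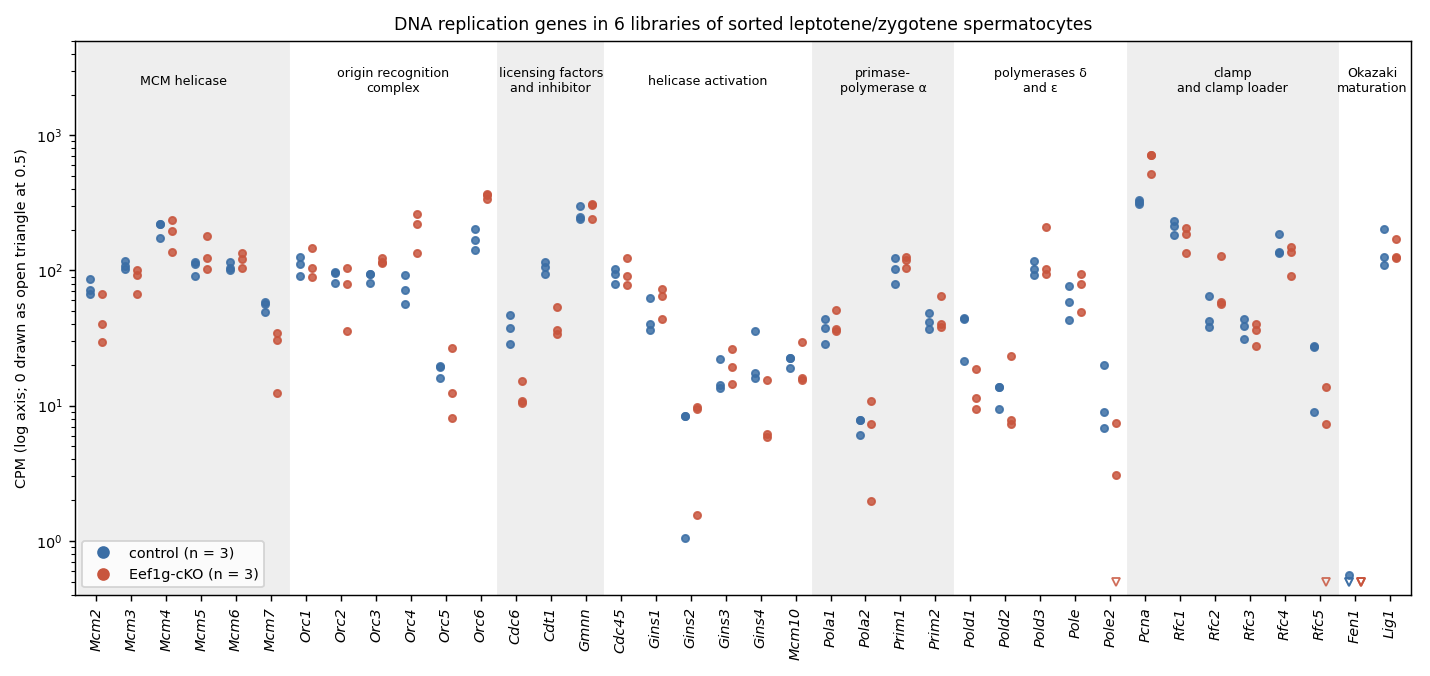
CPM of the 38 replication genes on a log axis, grouped by role, with each point 1 library, control in blue and Eef1g-cKO in red, and open triangles for libraries with no read. Pcna, Orc4 and Orc6 stand apart upwards in the Eef1g-cKO libraries and Cdt1 and Cdc6 downwards, while most other genes overlap between the genotypes.

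Between genotypes the machinery did not move as a block. Pcna, Orc4 and Orc6 were higher in Eef1g-cKO L/Z cells, Cdt1 and Cdc6 were lower, and the other 32 tested members did not pass an adjusted p of 0.05 (quasi-likelihood test of edgeR, adjusted by Benjamini-Hochberg over all tested genes). All 5 also passed a log2 fold change limit of 1 in either direction. In these bulk libraries, fewer cells of a type and less RNA per cell cannot be told apart.

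The counts of calls have to be read against the table as a whole. The 2 lower members are 5.41% of the 37 tested, where 6.01% of all tested genes were lower, and 4.96% with the fold limit. The 3 higher members are 8.11%, where 7.80% of all tested genes were higher, and 3.42% with the fold limit. Under library totals alone 333 tested genes were higher and 643 lower, and under upper-quartile scaling 463 and 639, beside 664 and 512 as reported. The shares of members without the fold limit are close to the background, so the number of members called is not a result about replication genes, and the description below rests on which genes they were. Fitted changes were negative for 19 members and positive for 18, with a median log2 fold change of -0.03, beside -0.05 for all tested genes. The summed level of all members was 3256, 3212 and 3030 CPM in the control libraries and 3453, 3834 and 3818 CPM in the Eef1g-cKO libraries. Without Pcna the sums were 2933, 2900 and 2701 CPM in control against 2934, 3117 and 3102 CPM in Eef1g-cKO.

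Facts of the libraries bear on every value. Totals ran from 763133 reads in Eef1g-cKO replicate 3 to 2617648 in Eef1g-cKO replicate 2, which puts the floor of 3 reads at 1.18 to 4.63 CPM. Genes with any read numbered 14903 to 15761 in the control libraries and 11174 to 14514 in the Eef1g-cKO libraries. The TMM scaling factors were 1.06 to 1.09 in control and 0.860 to 0.989 in Eef1g-cKO. Each library held 2472 to 9778 reads of the members, and 26 of the 38 had a mean of at least 50 reads. The deleted gene itself, Eef1g, was at 222, 226 and 212 CPM in control and 139, 151 and 119 CPM in Eef1g-cKO, which gives -0.68 on the log2 scale (SE 0.20, edgeR adjusted p = 0.029), and reads outside the deleted part still count for it. This call passed in 9 of 17 other fits and was lost, among others, without any 1 of the control replicates or without Eef1g-cKO replicate 1 (adjusted p = 0.0837 to 0.121). L/Z markers were well detected, with sums of 9900 to 11350 CPM in control and 21390 to 28290 in Eef1g-cKO, and 7 of 9 tested were higher and 0 lower. Of 8 tested spermatogonia markers, 5 were lower and 1 higher (summed 1662 to 1859 CPM against 964.8 to 1185), and Stra8, a gene of meiotic entry, was lower (log2 fold change -0.69, edgeR adjusted p = 0.0265). Eef1g-cKO mice carry Stra8-GFPCre, and whether this driver itself alters the Stra8 count was not tested. Of 4 tested Sertoli markers 2 were lower, with sums of 78.6 to 292 CPM in control and 1.55 to 51.8 in Eef1g-cKO, and of 4 tested stromal markers 3 were lower (129 to 239 CPM against 12.4 to 51.0). Of 3 tested markers of pachytene and later cells, 1 was lower, with sums of 44.2 to 55.7 CPM against 4.63 to 26.7. No Leydig marker of 5 had enough reads to be tested (8.40 to 10.7 CPM in sum against 1.57 to 6.47), and neither direction was called for the 1 blood marker that was tested (6.72 to 74.8 against 3.24 to 75.7 for the list). No read at all was listed for Acr among the late germ cell markers, Cyp17a1 and Hsd3b1 among the Leydig markers, or Cd68 and Csf1r among the blood markers. L/Z, spermatogonia, Sertoli and stromal markers moved with genotype, and their part in the changes of the replication genes was not tested.

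Licensing factors gave the clearest fall. Cdt1 (chr8:122568015-122573554, plus strand) encodes the loader that brings MCM to ORC. It stood at 106, 116 and 94.0 CPM in the control libraries and at 36.4, 53.7 and 34.0 CPM in the Eef1g-cKO libraries. Every Eef1g-cKO library lay below every control library, and the log2 fold change was -1.32 (SE 0.30, edgeR adjusted p = 0.00611). Behind these values were 139, 221 and 168 reads in control and 45, 137 and 22 in Eef1g-cKO.

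Cdc6 (chr11:98907801-98923940, plus strand) encodes the ATPase that works with CDT1 at origins. Its levels were 46.6, 37.3 and 28.6 CPM in control and 10.5, 15.3 and 10.8 CPM in Eef1g-cKO. The genotypes did not overlap, and the log2 fold change was -1.57 (SE 0.47, edgeR adjusted p = 0.0316). Only 13, 39 and 7 reads were behind the Eef1g-cKO values, and the call was lost without control replicate 1 (adjusted p = 0.169), control replicate 2 (0.112), control replicate 3 (0.0640) or Eef1g-cKO replicate 1 (0.0884), with the change between -1.74 and -1.39.

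Gmnn (chr13:24751845-24761923, minus strand), the inhibitor of CDT1, was at 299, 247 and 239.6 CPM in control and at 312, 303 and 239.4 CPM in Eef1g-cKO. The libraries of the genotypes overlapped fully. Its log2 fold change was 0.13 (SE 0.18, edgeR adjusted p = 0.701), with a 95% interval from -0.26 to 0.51.

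The balance between transcripts of the inhibitor and of the licensing factors can also be read within each library, where no scaling between libraries enters. Only RNA was measured in these libraries, so the balance of the proteins was not examined. Per length, Gmnn exceeded Cdt1 by 6.04, 4.57 and 5.46 times in the control libraries and by 18.4, 12.1 and 15.1 times in the Eef1g-cKO libraries. Means were 5.36 ± 0.744 and 15.2 ± 3.15 (SD, n = 3), and the genotypes did not overlap. For Gmnn over Cdc6 the ratios were 22.9, 23.7 and 30 in control and 106, 70.7 and 79.0 in Eef1g-cKO. These and the later ratios, 7 in all, were picked after the levels had been seen, so they describe the libraries and have no test.

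**Figure D2:**
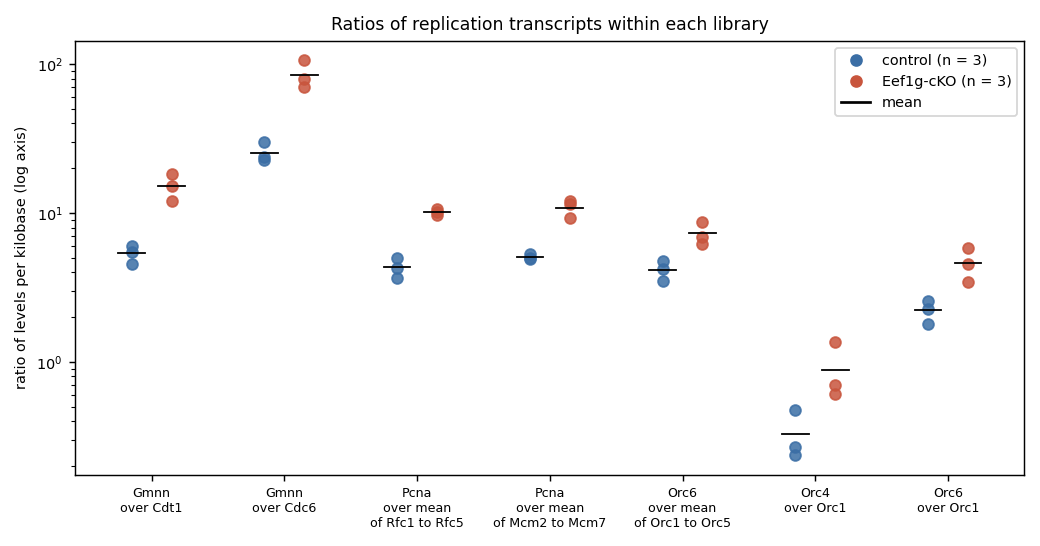
Ratios of levels per kilobase within each library on a log axis, with control libraries in blue, Eef1g-cKO libraries in red and the group mean as a line. All 7 ratios, picked after the levels were seen, are higher in every Eef1g-cKO library than in any control library.

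ORC subunits split. Orc6 (chr8:85299632-85308278, plus strand) encodes the smallest subunit and was the highest of the complex per length in every library. It stood at 142, 202 and 167 CPM in control and at 369, 360.3 and 337 CPM in Eef1g-cKO. All Eef1g-cKO libraries lay above all control libraries, and the log2 fold change was 1.06 (SE 0.19, edgeR adjusted p = 0.00103). Of its exonic bases 6.9% are shared with Vps35 on the opposite strand, which was itself higher (log2 fold change 0.56, edgeR adjusted p = 0.0267). Whether the counting used strand is not stated.

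Orc4 (chr2:48902824-48950277, minus strand), an ATP-binding core subunit, rose from 56.5, 71.9 and 92.9 CPM to 260.4, 222 and 134 CPM. The genotypes did not overlap, with the lowest Eef1g-cKO value in replicate 3, the shallowest library. The log2 fold change was 1.48 (SE 0.27, edgeR adjusted p = 0.00125), the largest rise among the members. Mbd5 and Acvr2a on the opposite strand share 7.8% of the exonic bases of Orc4, and Mbd5 was also higher (log2 fold change 1.11, edgeR adjusted p = 0.0454), Acvr2a being at 0.19 (adjusted p = 0.795).

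The other 4 ORC genes did not pass the threshold. Orc1, whose protein is the subunit that comes and goes with the cell cycle, had a log2 fold change of 0.07 with a 95% interval from -0.47 to 0.61. Orc2 was at -0.28, Orc5 at -0.17 and Orc3 at 0.40. Orc2 shares 29.8% of its exonic bases with Nif3l1 on the opposite strand, which was at 0.14 (edgeR adjusted p = 0.905). For Orc3 the Eef1g-cKO libraries (114, 123 and 116 CPM) lay above the control libraries (93.9, 94.5 and 80.1 CPM), yet the edgeR adjusted p was 0.304. Within libraries, Orc4 stood at 0.238, 0.269 and 0.475 of Orc1 per length in control and at 1.37, 0.701 and 0.606 in Eef1g-cKO. Orc6 was 4.18 ± 0.658 times the mean of Orc1 to Orc5 in control and 7.30 ± 1.30 times in Eef1g-cKO (SD, n = 3). The summed ORC level was 515, 594 and 548 CPM in control and 945, 958 and 738 CPM in Eef1g-cKO.

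MCM genes, whose products form a ring with 1 copy of each of 6 subunits, gave no call. Their summed level was 629.7, 639 and 699 CPM in the control libraries and 588, 631 and 595 CPM in the Eef1g-cKO libraries, and these ranges overlapped. Mcm4, the highest per length in control, was at 174, 219 and 219 CPM in control and 138, 197 and 238 CPM in Eef1g-cKO, -0.11 on the log2 scale (SE 0.22, edgeR adjusted p = 0.803). Per length, transcripts for a ring of equal parts were not equal in level. In control, Mcm4 stood at 56.9 CPM per kb, Mcm3, Mcm5 and Mcm6 at 29.2, 26.5 and 22.8, and Mcm7 and Mcm2 at 12.4 and 10.8. Per length, control libraries of Mcm3 overlapped with those of Mcm5, those of Mcm5 with Mcm6, and those of Mcm7 with Mcm2. Without regard to length the control means were 204.1 CPM for Mcm4, and 109.7, 105.8 and 106.6 for Mcm3, Mcm5 and Mcm6. Mcm2, at 75.05 CPM, then stood above Mcm7, at 54.85, so this order depends on the length used.

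Within the ring the fitted changes ran from -1.02 for Mcm7 to 0.37 for Mcm5. Mcm7 fell short of the threshold (edgeR adjusted p = 0.0929), although its libraries did not overlap, at 49.6, 56.2 and 58.8 CPM in control and 30.7, 34.5 and 12.4 CPM in Eef1g-cKO. It shares 12.6% of its exonic bases with other genes, among them Cops6 on the opposite strand, which was lower (log2 fold change -1.08, edgeR adjusted p = 0.0310). Mcm2 was at 71.8, 67.2 and 86.2 CPM against 67.1, 40.4 and 29.4 CPM, without overlap and with a log2 fold change of -0.70 (adjusted p = 0.184). Mcm3 also did not overlap (-0.33, adjusted p = 0.445). Mcm5 at 0.37 and Mcm6 at 0.17, which carry the mirrored E2F pair shown above, both overlapped between genotypes.

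Over all members, libraries of the genotypes did not overlap for 7 genes that were lower and 4 that were higher. These are 18.9% and 10.8% of the 37 tested members, beside 18.1% and 16.4% of all tested genes. The 7 were Mcm2, Mcm3, Mcm7, Cdc6, Cdt1, Gins4 and Pold1, and the 4 were Orc3, Orc4, Orc6 and Pcna. Neither share stands apart from the background.

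Among the 6 factors that activate the helicase, 0 passed the threshold. Gins1, the highest of them per length in control, encodes a GINS subunit and was at 40.5, 63.0 and 36.4 CPM in control and 64.7, 43.5 and 72.6 CPM in Eef1g-cKO (log2 fold change 0.34, SE 0.35, edgeR adjusted p = 0.565). Cdc45, the partner of GINS in the moving helicase, was at 0.07 with a 95% interval from -0.50 to 0.63. Gins4 was the only 1 of the 6 without overlap, at 16.0, 35.7 and 17.4 CPM against 15.4, 5.88 and 6.18 CPM (-1.33, edgeR adjusted p = 0.167). Gins3 was at 0.25 and Mcm10 at -0.12. Gins2 was at 0.32 with an interval from -1.58 to 2.22, and 67.3% of its exonic bases are shared with Gse1 on the opposite strand, so that little can be read from it.

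The 4 genes of polymerase alpha and primase gave 0 calls, with log2 fold changes from -0.25 (Pola2) to 0.20 (Prim1). Prim1, the catalytic primase subunit, stood at 123, 102 and 79.5 CPM in control and 105, 119 and 125 CPM in Eef1g-cKO, with overlapping libraries (SE 0.25, edgeR adjusted p = 0.658). Prim2 was at 0.18 and Pola1, the catalytic polymerase subunit, at 0.17. Pola2 had fewer reads, and its 95% interval ran from -2.06 to 1.56.

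Polymerases delta and epsilon gave no call either, but their subunits were spread more widely. Pold1, the catalytic subunit of polymerase delta, was at 44.3, 43.6 and 21.3 CPM in control and 11.3, 9.41 and 18.5 CPM in Eef1g-cKO. These libraries did not overlap, and with a log2 fold change of -1.53 (SE 0.51) the edgeR adjusted p was 0.0506, at the edge of the threshold. In 6 of 17 other fits it passed, with an adjusted p down to 0.0116. Of the 6 fits that each left out a library, only that without Eef1g-cKO replicate 3 passed (-1.78, adjusted p = 0.0229). With the GC content offset Pold1 was at -1.04 (adjusted p = 0.203), and with that offset and the replicate block at -1.02 (adjusted p = 0.294). Pold3, an accessory subunit and the highest of this group per length in control, was at 118, 92.4 and 103 CPM against 94.6, 102 and 208.5 CPM (0.34, SE 0.29, edgeR adjusted p = 0.482), and only Eef1g-cKO replicate 3 lay above the control range. Pold2 was at -0.03, Pole, the catalytic subunit of polymerase epsilon, at 0.33, and Pole2 at -1.61 with an interval from -3.55 to 0.33 and 0 reads in 1 Eef1g-cKO library.

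Pcna (chr2:132249162-132253314, minus strand), the sliding clamp that tethers the polymerases, showed the smallest adjusted p of the members. It rose from 323, 311 and 329 CPM in the control libraries to 519, 717 and 717 CPM in the Eef1g-cKO libraries. Control libraries were tight (SD 9.06), all Eef1g-cKO libraries lay above them, and the log2 fold change was 1.02 (SE 0.17, edgeR adjusted p = 0.000576). The counts were 423, 593 and 588 reads against 642, 1828 and 464. A near-identical copy, Pcna-ps2, rose as well (10.7, 22.1 and 23.0 CPM against 42.1, 49.4 and 74.1, log2 fold change 1.53, edgeR adjusted p = 0.0200). How reads with several alignments were treated is not stated, so the split between Pcna and this copy is uncertain.

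Rfc1 to Rfc5, whose products form the complex that opens the PCNA ring, gave 0 calls among 5, and their changes were not tested against that of Pcna. Log2 fold changes were -0.25 for Rfc1, 0.71 for Rfc2, -0.13 for Rfc3, -0.28 for Rfc4 and -1.41 for Rfc5. The intervals of Rfc1, Rfc3 and Rfc4 lay within 1 of 0, that of Rfc2 ran from -0.05 to 1.47 and so holds the value of Pcna, and that of Rfc5 ran from -2.98 to 0.16 on few reads, 0 in Eef1g-cKO replicate 3. Per length, Pcna exceeded the mean of Rfc1 to Rfc5 by 4.31, 3.67 and 5.01 times in control and by 10.6, 10.1 and 9.66 times in Eef1g-cKO. Against the mean of Mcm2 to Mcm7 the ratio went from 5.07 ± 0.218 to 10.9 ± 1.48 (SD, n = 3).

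For Okazaki fragment maturation only Lig1, the ligase of the lagging strand, could be tested. It was at 202, 109 and 126.5 CPM in control and 123, 125 and 169.9 CPM in Eef1g-cKO, or -0.07 on the log2 scale (SE 0.26, edgeR adjusted p = 0.888). Fen1, the flap endonuclease, had 0, 0 and 1 reads in control and 0 reads in each Eef1g-cKO library. Of its exonic bases 84.2% are shared with genes on the opposite strand, Tmem258 (167, 268 and 246 reads against 142, 272 and 28) and Gm10143. These counts therefore say little about whether Fen1 is transcribed.

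**Figure D3:**
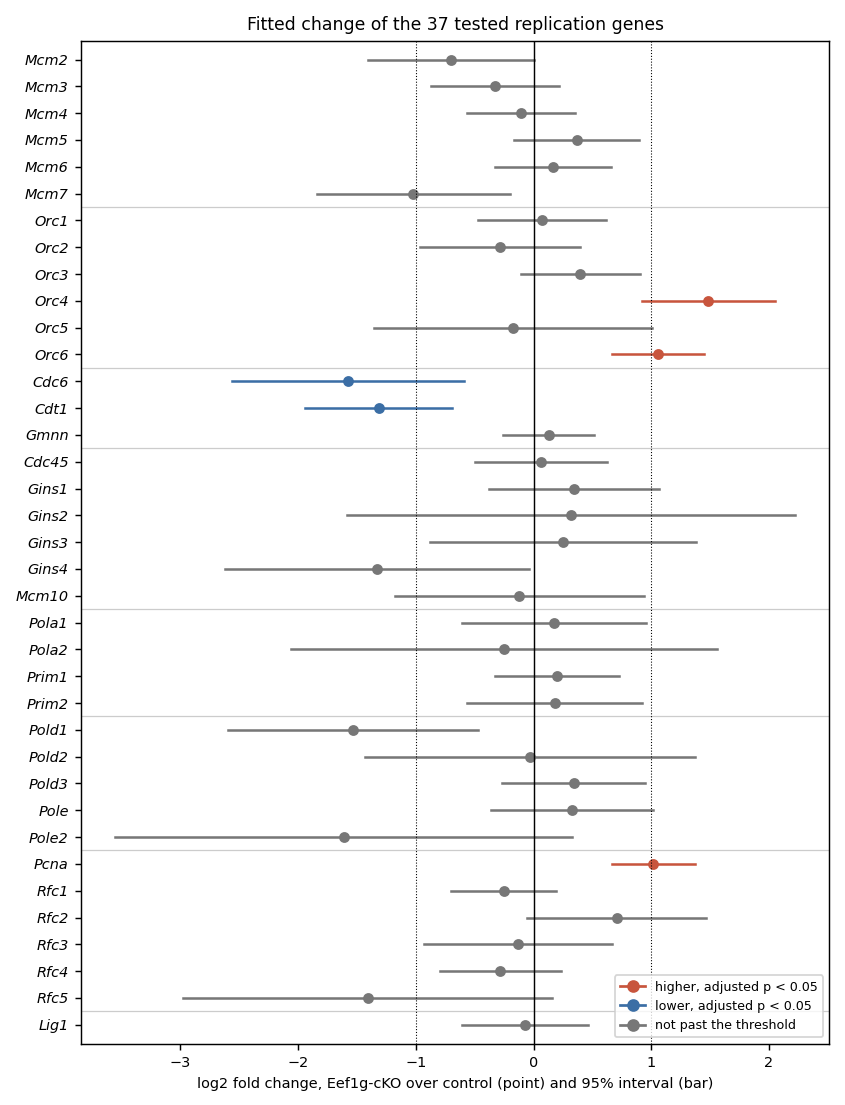
Fitted log2 fold change (point) and 95% interval (bar) of the 37 tested replication genes, Eef1g-cKO over control, with roles separated by grey lines and dotted lines at a log2 fold change of 1 in each direction. Of the 5 called genes, Pcna, Orc4 and Orc6 lie to the right and Cdt1 and Cdc6 to the left, and 17 of the 32 uncalled genes have intervals that stay between the dotted lines.

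What the 32 uncalled members can show depends on their precision. Standard errors of the 37 fitted changes ran from 0.168 to 0.926. For 17 of the 32, the 95% interval lay wholly within a log2 fold change of 1 in either direction, so a larger change is outside the interval for these, Gmnn, Orc1, Cdc45, Lig1, Mcm3 to Mcm6 and Prim1 among them. For the other 15 the interval reached past that size, so a change of that size is neither shown nor excluded by these reads. At an unadjusted p under 0.05 there were 5 lower members and 3 higher, the additions being Mcm7, Gins4 and Pold1.

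Promoter letters can be set beside the calls as a description. Both lower members carried an E2F match, Cdc6 upstream of the RefSeq start and Cdt1 just after it, as shown above. Of the 3 higher members 0 carried one in any of their 5 listed promoters, and all 3 held a CCAAT box. Of the 24 uncalled members with a promoter, 13 (54.2%) held an E2F match, so a match was as usual among genes that did not pass the threshold. With 5 called genes no more than this can be read, and no match says only that these letters are absent from the window.

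Genes that work with the members at forks and origins were followed as lists of their own. In each list the calls without the fold limit are given. The named genes are those with the lowest adjusted p in each direction or the highest mean CPM. Seen after the fact, the remaining calls and some partners of called genes were added. Of all tested genes 7.80% were higher and 6.01% lower, and the shares of the lists were not tested against these. Of 23 tested firing and fork factors, 5 (21.7%) were higher and 0 lower, with a median log2 fold change of 0.14. The lowest adjusted p belonged to Pole4, a histone-fold subunit of polymerase epsilon, at 339.7, 345 and 376 CPM in control and 800.5, 689.7 and 749 CPM in Eef1g-cKO (1.08, SE 0.15, edgeR adjusted p = 0.000157). Tipin of the fork protection complex rose by 0.82, Topbp1, a scaffold of origin firing, by 0.62, Mtbp, which acts with Treslin at origins, by 1.02 and Rpa3, a subunit of the single-strand binding protein, by 0.67. TIPIN works as a pair with TIMELESS, and Timeless stood at 58.0, 47.8 and 48.7 CPM in control and 20.2, 39.6 and 20.1 CPM in Eef1g-cKO (-0.90, edgeR adjusted p = 0.136). Of other partners in the list, Pole3 was at 0.12, Ticrr, the gene of Treslin, at -0.19, Rpa1 at 0.13 and Rpa2 at -0.24. Their libraries overlapped between genotypes (edgeR adjusted p = 0.572 to 0.854). RPA and TOPBP1 also act at meiotic DNA breaks, and L/Z markers rose in the same libraries, as given above. Whether the rises of Rpa3 and Topbp1 are linked with that of the L/Z markers was not tested.

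Deoxynucleotide supply had 1 call among 6 tested genes (16.7%). Dctpp1, which removes modified dCTP, was lower at 131, 108 and 99.1 CPM against 46.9, 78.8 and 49.4 CPM (log2 fold change -0.92, edgeR adjusted p = 0.0398). Dut, which had the most CPM of the list without regard to length, was at -0.59 (adjusted p = 0.0643). The median of the list was -0.56.

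Chromatin factors coupled to replication gave 2 higher (28.6%) and 1 lower (14.3%) of 7. Asf1b, a histone H3-H4 chaperone, stood at 76.3, 78.7 and 78.9 CPM in control and 191, 185 and 191.5 CPM in Eef1g-cKO (1.27, edgeR adjusted p = 0.000829). Slbp, which binds histone mRNA, rose by 0.85 (adjusted p = 0.0216), and Dnmt1, the maintenance DNA methyltransferase, was lower by a log2 fold change of -0.90 (adjusted p = 0.0237). Uhrf1, its partner at hemimethylated DNA, was at -0.22 (adjusted p = 0.538).

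Among 10 tested genes of S phase entry 0 passed in edgeR, with 1 lower and 1 higher at an unadjusted p under 0.05. Those were Ccna2, cyclin A2 (-0.62, adjusted p = 0.0858), and Ccne2, cyclin E2 (0.76, adjusted p = 0.0721), and Cdk2, which had the most CPM over all libraries without regard to length, was at 0.25 (adjusted p = 0.422). Of 17 tested genes of mitotic division 2 were higher and 2 lower, or 11.8% in each direction. Bub1, a checkpoint kinase, rose by 1.06 and Top2a, which untangles DNA, by 0.75. Aurkb, the kinase of the chromosomal passenger complex, was lower at 37.4, 33.1 and 52.1 CPM against 4.85, 9.02 and 6.18 CPM (-2.54, edgeR adjusted p = 0.00264), and Cenpa, the centromeric histone, by -0.83 (adjusted p = 0.0303). The median of the mitotic list was -0.13, and the list, like the members, held calls in both directions.

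**Figure D4:**
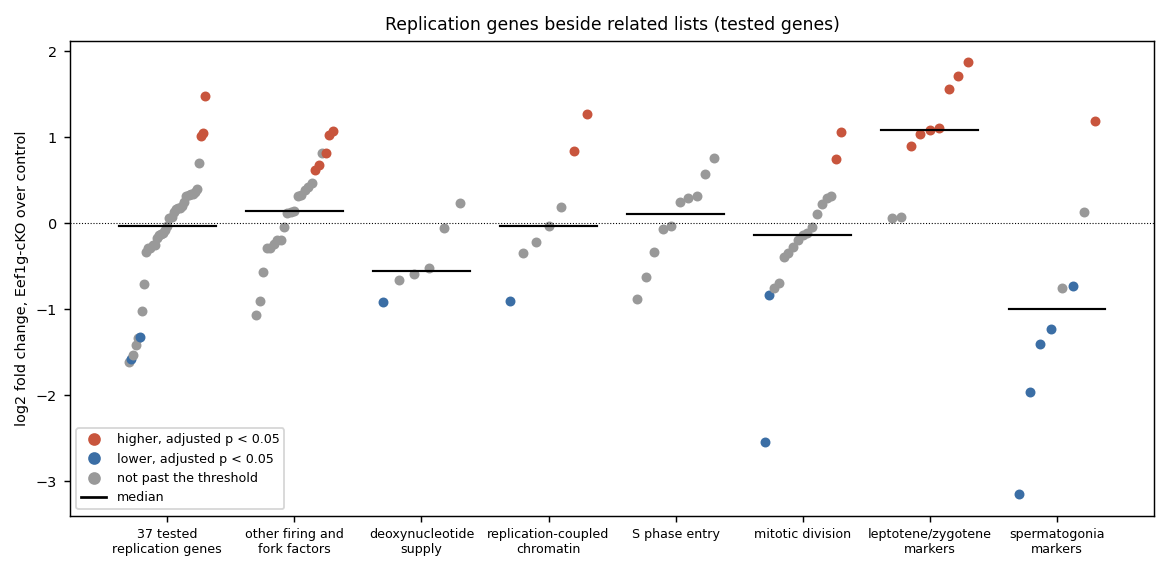
Log2 fold change of every tested gene, Eef1g-cKO over control, for the replication genes, 5 related lists and 2 marker lists, with called genes in red (higher) or blue (lower), uncalled genes in grey and the median as a line. The replication genes have a median of -0.03 with calls at both ends, whereas the L/Z markers have a median of 1.09.

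The 5 called members differed in how they held under other fits, of which there were 17 (other scalings, filters, tests, a block on replicate number, a GC content offset and each library left out). Pcna, Orc4 and Orc6 kept an adjusted p under 0.05 in all 17, with log2 fold changes of 0.82 to 1.19, 1.04 to 1.73 and 0.87 to 1.21. Their place above the fold limit was less firm, since Pcna exceeded it in 9 and Orc6 in 11 of the 17. Cdt1 passed in 16 of 17, the exception being the GC content offset with the replicate block (-0.97, adjusted p = 0.0656). Cdc6 passed in 9 of the 16 fits in which it was tested, with changes from -1.79 to -1.39. Of the 32 uncalled members, Pold1 was the only 1 that passed in any of these fits.

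**Figure D5:**
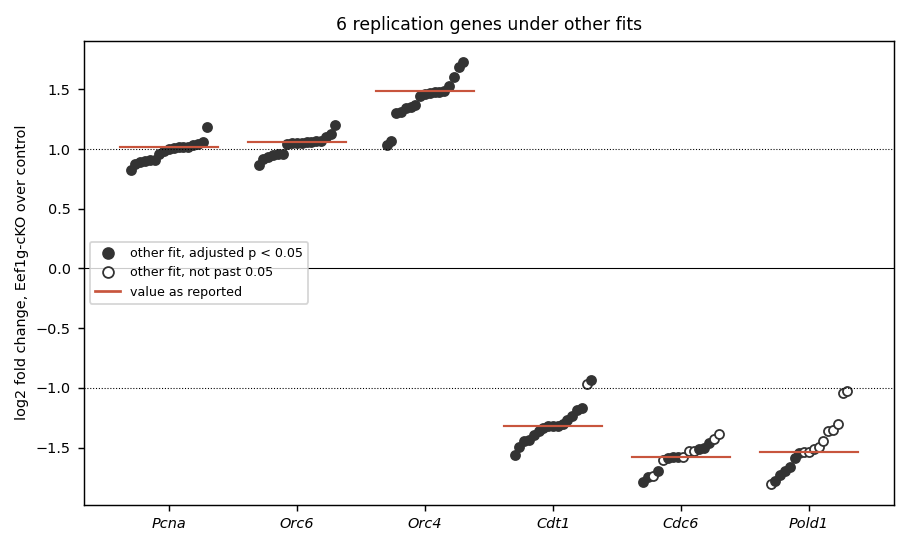
Log2 fold changes of the 5 called members and Pold1 in each other fit, filled where the adjusted p was under 0.05 and open where it was not, with the reported value as a red line. Pcna, Orc6 and Orc4 are filled throughout, Cdt1 has 1 open point, and Cdc6 and Pold1 are mixed.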

How the data were processed

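L/Z spermatocytes were sorted by the authors, full-length cDNA was amplified from polyadenylated RNA, and paired-end reads were trimmed with fastp, aligned to GRCm38 with HISAT2 and counted with featureCounts. The deposited table holds whole-number read counts for each gene and library, with no scaling. Strand setting, multimapping and annotation release are not given in the sources used here. Reads carried no molecular identifiers, so the floor of 3 reads covers counting error only. Intervals of fold changes come from the fit and include the spread between libraries.

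Counts were tested with edgeR 4.0.16 in R 4.3.3: filterByExpr (minimum count 10, minimum total 15) kept 8513 genes with 98.1% of the reads, TMM scaling, robust quasi-likelihood F test with genotype as the only term, and Benjamini-Hochberg adjustment over all tested genes. A call is an adjusted p under 0.05, with a log2 fold change limit of 1 where stated. SE is the log2 fold change over the square root of F. DESeq2 1.42.0 and limma 3.58.1 (voom) were alternatives, beside other scalings and filters, a GC content offset and each library left out. No libraries agreed within sampling noise. Values in every library are given for members with an adjusted p under 0.05 and the highest member of each role, others mostly by fitted change. Exon overlaps come from GENCODE M21, and promoters from RefSeq (GRCm38.p6). Members and lists were chosen by gene name, with earlier results of these data known. For 1 gene of the related lists no separate values are reported here.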

Additional observations from a re-analysis of the deposited data

How the results depend on the processing

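With the fold limit of 1, the count of higher members was 3 as reported and 1 under upper-quartile scaling, library totals, at least 10 reads in every library, the GC content offset, and that offset with the replicate block. The count of lower members was 2 as reported, 1 without a low-count filter, with the replicate block or with the GC content offset, and 0 with both of the last together. It was 3, with or without the fold limit, under upper-quartile scaling, library totals alone, DESeq2 and voom with quality weights. Without the fold limit, the lower count was 1 without a filter or with the replicate block and 0 with the GC content offset and block, while the higher count was 3 in every fit. At an unadjusted p under 0.05 there were 5 lower members with or without the fold limit. Leaving out each library gave 1 to 3 lower members with or without the fold limit, 2 to 3 higher members with it, and a median over the members of -0.05 to 0.09. The lower count was 1 without control replicate 1, 2 or 3 or Eef1g-cKO replicate 1, and 3 without Eef1g-cKO replicate 3. The median over the members went from -0.03 to -0.249 with library totals alone, where the median of all tested genes went from -0.05 to -0.239. Upper-quartile scaling put that of all genes at -0.172. The cause of these shifts was not tested. Same-numbered libraries did not deviate together (r of -0.035, 0.018 and -0.046), so the replicate numbers were not taken as pairs. Under the block, Cdc6 was at -1.60 (adjusted p = 0.0632) and 3 higher members and 1 lower member were called. The shallowest library held 763133 reads, where 3 reads are 4.63 CPM, and Fen1, Rfc5, Gins2, Pole2, Gins4, Cdc6, Pola2, Mcm7 and Orc5 had under 10 reads there.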
